A study of Mus musculus with 12 samples.

Results

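The 9 genes described here encode the enzymes that write, copy and remove DNA methylation in mouse cells, together with proteins that guide or read the mark. They were the rows of the deposited count table named Dnmt1, Dnmt3a, Dnmt3b, Uhrf1, Uhrf2, Tet1, Tet2, Tet3 and Mbd2, which is 9 of the 34513 genes in the table. All 9 passed the filter on low counts and were tested with the 18338 genes that did. Tet2 passed only through its counts in the melanoma lines named below. RNA was measured in 3 cultured mouse lines, each untreated or treated with SX-682, a small-molecule antagonist of the chemokine receptors CXCR1 and CXCR2. The lines were MelanA, labelled nontumorigenic, and the melanoma lines B16F0 and B16F10. Each of the 6 groups had 2 libraries, 12 in all. The dose and duration of SX-682 in these cultures were not given in the sources used here, and the labels do not say that the 2 libraries of a group came from separate cultures, so the p-values measure only the spread between these libraries, which may be technical.

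Cytosine methylation at CpG sites is copied after each round of DNA replication. UHRF1 binds the half-methylated daughter duplex and brings in DNMT1, the maintenance methyltransferase, while DNMT3A and DNMT3B place methyl groups on unmethylated DNA. The TET enzymes oxidise the methyl group, using 2-oxoglutarate and iron, which begins its loss either by dilution at replication or by base excision. MBD2 binds methylated CpG and belongs to the NuRD chromatin remodelling complex, and UHRF2 resembles UHRF1 in sequence but does not replace it in maintenance. In mouse melanoma these enzymes are studied because tumour cells change both their global and their promoter methylation. The values below are RNA levels, and no methylation was measured.

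Library totals lay between 48876982 and 85322092 counts. Melanocyte markers, used to check the labelled cell type, were read in every line but far lower in MelanA, where the summed level of 8 markers was 4380 to 4480 CPM (counts relative to the size of the library after TMM scaling) in the untreated libraries, against 25200 to 25400 in B16F0 and 36400 in B16F10. Tyr, the tyrosinase gene, was at 0.892 and 0.759 CPM in untreated MelanA and at 516 and 513 CPM in untreated B16F0. Most of the untreated MelanA sum was Gpnmb, at a mean of 3070 CPM, followed by Sox10 at 670 and Dct at 354. Mlana was at 116, Tyrp1 at 107, Mitf at 102 and Pmel at 8.11 CPM there. Of these markers 7 were higher and 1 lower in each untreated melanoma line than in MelanA, at adjusted p under 0.05 in edgeR's test. Of all tested genes, 35.3% were higher and 40.6% lower in B16F0, and 33.4% and 40.8% in B16F10. The 6 fibroblast markers summed to 114 to 115 CPM in untreated MelanA, to 16.1 to 16.7 in B16F0 and to 8.43 to 9.71 in B16F10. Most of the MelanA sum was Col3a1, at a mean of 53.9 CPM, and Col1a1, at 46.4. Beside the same shares of all genes, 4 of the 6 were lower and 2 higher in untreated B16F0 than in MelanA. In untreated B16F10 5 were lower and 1 higher. Leukocyte, keratinocyte and endothelial lists each summed to 5.71 CPM or less in every library. With SX-682 all 8 melanocyte markers were lower in B16F0 (sum 21800 to 22000 CPM) and in B16F10 (24400 to 24800), as were 25.0% and 25.3% of all genes. In MelanA 3 were higher and 4 lower (sum 4680 to 4700, with Gpnmb at a mean of 3340), against 23.4% and 24.7% of all genes. Of the 6 fibroblast markers, 4 were lower in MelanA (sum 93.4 to 94.8), beside the same 24.7%. The part of these marker differences in the contrasts between lines and in the changes with SX-682 was not tested.

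Promoter sequence is shown for Uhrf1 and Uhrf2, the related genes that moved in opposite directions. It is also shown for Tet2, which of the 9 genes differed most between untreated MelanA and both melanoma lines. Each run is the 250 bases before a RefSeq start site in GRCm38.p6, 5′ to 3′ on the gene's strand. RefSeq windows were examined for 8 of the 9 genes, and Mbd2 was left out of the search. Capitals mark TTTNGCGC, the E2F-type motif searched on both strands, which occurred in 1.13% of 32851 promoter windows of the same length. RefSeq gives 2 windows for Uhrf1, of which the one printed, at chr17:56304063-56304312 on the plus strand, held it once, 185 bases before the start site, and the other held none.
Uhrf1: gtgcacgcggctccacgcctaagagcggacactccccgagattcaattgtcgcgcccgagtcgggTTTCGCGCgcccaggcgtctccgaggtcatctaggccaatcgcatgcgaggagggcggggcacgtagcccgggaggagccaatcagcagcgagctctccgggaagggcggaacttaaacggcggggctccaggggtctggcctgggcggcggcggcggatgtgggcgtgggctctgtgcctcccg
Uhrf2: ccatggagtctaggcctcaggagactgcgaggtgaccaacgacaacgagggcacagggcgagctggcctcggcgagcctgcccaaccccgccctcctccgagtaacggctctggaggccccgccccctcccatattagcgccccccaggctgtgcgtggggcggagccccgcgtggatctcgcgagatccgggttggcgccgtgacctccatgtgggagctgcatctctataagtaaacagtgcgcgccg
Tet2: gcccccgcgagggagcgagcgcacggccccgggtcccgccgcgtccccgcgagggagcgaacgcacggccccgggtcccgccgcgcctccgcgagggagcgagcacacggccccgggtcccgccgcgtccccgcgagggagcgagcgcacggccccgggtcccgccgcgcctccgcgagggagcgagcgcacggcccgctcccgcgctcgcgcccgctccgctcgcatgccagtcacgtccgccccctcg
The Uhrf2 window, at chr19:30030263-30030512 on the plus strand, held no match. The Tet2 window, at chr3:133544391-133544640 on the minus strand, held none either, but carried 51 CpG dinucleotides, against 30 in the printed Uhrf1 window, 10 in the other Uhrf1 window, 23 in the Uhrf2 window and a median of 6 over all windows. Fewer CpG were present in 99.9% of windows than in that of Tet2. One of 3 Dnmt1 windows also held TTTNGCGC once, and the windows of Dnmt3a, Dnmt3b, Tet1 and Tet3 held none. A further pair of motifs was searched on both strands. CACGTG, an E-box found in 6.02% of windows, occurred in 1 of 3 Dnmt3a windows. TGATGNAA, an ATF4-CHOP type motif found in 3.45% of windows, occurred in none of the windows examined for these genes. These matches are letters in a window and not measured binding.

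The first question was how the untreated lines differed, and the clearest difference was Tet2. The gene, at chr3:133463679-133545139 on the minus strand (mm10), had 11 and 2 counts in the untreated MelanA libraries and 0 in both MelanA libraries with SX-682. Untreated B16F0 had 1774 and 1638 Tet2 counts, and untreated B16F10 had 1442 and 1459. With SX-682 the counts were 1087 and 774 in B16F0 and 964 and 941 in B16F10. No MelanA library overlapped any B16 library.

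Scaled for library size, Tet2 was 327-fold higher in untreated B16F0 than in untreated MelanA (95% interval 191 to 615, from counts summed over 2 libraries). The same ratio was 318 for untreated B16F10 (95% interval 186 to 598). These intervals are exact and cover counting error only, while the MelanA counts of 11 and 2 decide the size of both ratios. Without MelanA control library 1 they were 1090 and 1060, with counting intervals of 302 to 9010 and 293 to 8750, and without MelanA control library 2 they were 188 and 183. In the edgeR quasi-likelihood fit the differences were 8.32 and 8.28 on the log2 scale. Over the alternative fits described below they ran from 7.54 to 9.97 for B16F0 and from 7.5 to 9.94 for B16F10. No standard error is given, as the one from the fit was far narrower than these ranges. Tet2 passed the filter on low counts only through the B16 libraries, where it was high. The p-values of these comparisons with MelanA are thus no separate evidence and are not given. B16F10 and B16F0 did not differ beyond their spread, at -0.04 ± 0.078 (± is the SE derived from the F statistic, adjusted p = 0.68). With SX-682, where MelanA was at 0, B16F0 was at least 387-fold and B16F10 at least 380-fold above a floor of 3 counts in a MelanA library, which is 0.0421 CPM in the shallower of the pair.

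Several genes around Tet2 were read in MelanA at levels near those of B16F0 or above. Of the 4 protein-coding genes of the table on either side, Gstcd, Ints12, Ppa2 and Cenpe were at 32.6, 17.2, 33.4 and 155 CPM in untreated MelanA and at 22.9, 14.7, 32.2 and 85.7 CPM in untreated B16F0. Ppa2, which encodes a mitochondrial pyrophosphatase and is the nearest of them to Tet2, differed between these lines by -0.05 ± 0.055 on the log2 scale (adjusted p = 0.4). On the other side the nearest gene was Cxxc4, which encodes IDAX, a CXXC-domain protein known to bind TET2. Cxxc4 had 20, 16, 18 and 16 counts in the 4 MelanA libraries and 0 in all 8 B16 libraries, the reverse of Tet2, although all of its values were low. Of the remaining 3, Bdh2 was lower in MelanA, as Tet2 was, at 1.46 CPM against 5.91 in B16F0 (log2 2.02 ± 0.16, adjusted p = 2e-12) and 2.11 in B16F10 (log2 0.53 ± 0.18, adjusted p = 0.0078). Arhgef38 had 18 counts or fewer in every library and Tacr3 had 26 to 47 counts in MelanA and 4 or fewer in the B16 libraries. These neighbours were chosen after the Tet2 values were seen.

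**Figure D1:**
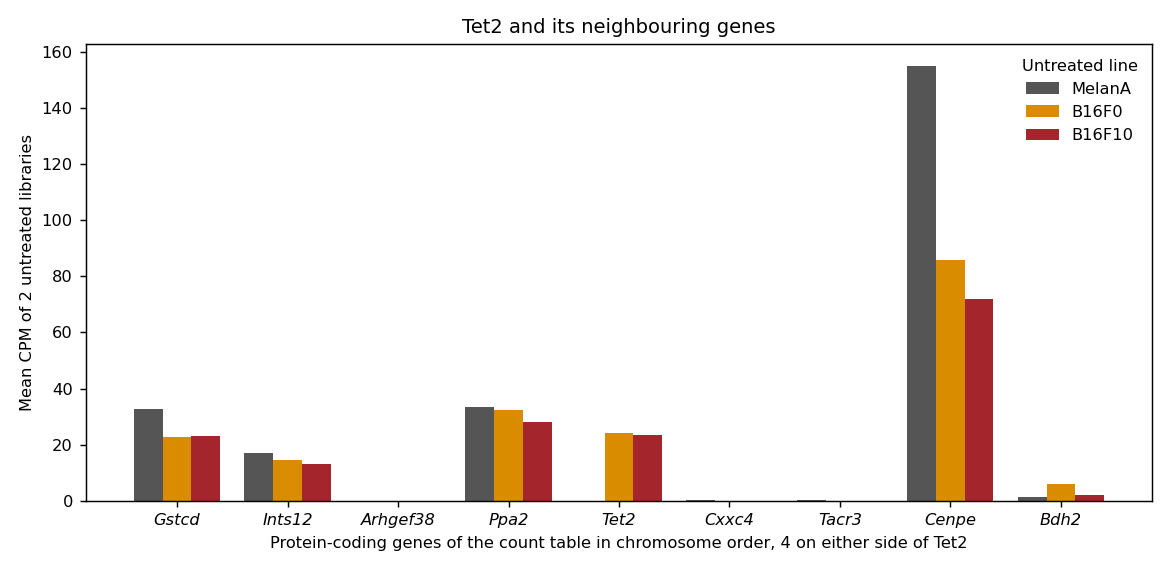
Mean CPM of the 2 untreated libraries of each line for Tet2 and the 4 protein-coding genes of the count table on either side, in chromosome order. The bar of MelanA is missing at Tet2 only among the genes read above 20 CPM in both melanoma lines, while Gstcd, Ppa2 and Cenpe stand at 32.6, 33.4 and 155 CPM in MelanA.

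With Tet2 included, 6 of the 9 genes were higher and 2 lower in untreated B16F0 than in untreated MelanA at adjusted p under 0.05 in edgeR's test, where 35.3% of all tested genes were higher and 40.6% lower. Between untreated B16F10 and MelanA 7 were higher and 2 lower, against 33.4% and 40.8% of all genes. Tet2 is among the higher genes in both comparisons, and it passed the filter on low counts only through the B16 libraries, where it was high. Between B16F10 and B16F0 3 were higher in B16F10 and 5 lower, against 30.8% and 31.2%. Their median difference was 0.376 on the log2 scale for B16F0 and 0.27 for B16F10 against MelanA, where the median of all tested genes was -0.06 and -0.1.

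Dnmt3b, the de novo enzyme most active in early embryos, was the other gene with a several-fold difference. It was at 1.054 and 1.441 CPM in untreated MelanA, at 6.446 and 6.587 in B16F0 and at 4.349 and 5.366 in B16F10. It was thus 5.2-fold higher in B16F0 (log2 2.38 ± 0.17, adjusted p = 2.1e-13) and 3.88-fold higher in B16F10 (log2 1.96 ± 0.18, adjusted p = 3.4e-11). B16F10 was below B16F0 by a smaller step (log2 -0.42 ± 0.15, adjusted p = 0.018), and that step no longer passed without either B16F0 control library (adjusted p = 0.058 and 0.073) or without B16F10 control library 1 (adjusted p = 0.23). Dnmt3a went slightly the other way, at 127.5 and 125.1 CPM in MelanA, 115.9 and 116.7 in B16F0 and 108.6 and 112 in B16F10. The differences from MelanA, -0.12 ± 0.032 and -0.20 ± 0.033, passed (adjusted p = 0.0016 and 4.7e-06), whereas that between B16F10 and B16F0 (log2 -0.08 ± 0.033, adjusted p = 0.049) no longer passed when any 1 of the 12 libraries was left out, under DESeq2 or RLE scaling (adjusted p = 0.06 for each) or with no filter on low counts (adjusted p = 0.13).

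The maintenance genes differed by up to 1.3-fold between lines. Dnmt1, at chr9:20907209-20959888 on the minus strand, was at 336.7 and 331.3 CPM in untreated MelanA, 376.2 and 381.1 in B16F0 and 391.5 and 408.5 in B16F10. Uhrf1, at chr17:56303321-56323486 on the plus strand, was at 190 and 189.1 CPM, 248.1 and 243.8 CPM, and 209.8 and 212.1 CPM in the same order. Neither gene's MelanA libraries overlapped those of B16F0 or B16F10, and the order was MelanA, B16F0, B16F10 for Dnmt1 and MelanA, B16F10, B16F0 for Uhrf1. The step in Dnmt1 from B16F0 to B16F10 was the smallest (log2 0.08 ± 0.025, adjusted p = 0.0065) and did not pass without B16F10 control library 2 (adjusted p = 0.088). Uhrf2 differed more, with 50.6 and 52.16 CPM in MelanA, 84.46 and 83.37 in B16F0 and 75.56 and 71.22 in B16F10, which is 1.63-fold and 1.43-fold higher than MelanA.

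Tet3, which supplies oxidation in the zygote and in many differentiated cells, was highest in MelanA, at 102.7 and 101 CPM, against 71.63 and 70.19 in B16F0 and 90.74 and 92.33 in B16F10. Its differences from MelanA were -0.52 ± 0.034 (adjusted p = 1.8e-14) and -0.15 ± 0.034 (adjusted p = 0.00017) on the log2 scale. Tet1, best known in embryonic stem cells, was highest in B16F0, at 11.36 and 12.31 CPM, against 6.345 and 6.327 in MelanA and 8.118 and 7.18 in B16F10. The Tet1 difference between B16F10 and MelanA (log2 0.27 ± 0.10, adjusted p = 0.02) did not pass without B16F10 control library 1 (adjusted p = 0.2) or MelanA control library 2 (adjusted p = 0.052), nor with at least 10 counts required in every library (adjusted p = 0.074). Mbd2 was highest in B16F10, at 173.9 and 177.7 CPM, against 122.4 and 122 in MelanA and 125.3 and 127.8 in B16F0, and the latter pair of lines was not separated by the test (log2 0.05 ± 0.032, adjusted p = 0.17).

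Per kilobase of exon, a scale on which genes can be set beside each other only roughly, Dnmt1 and Uhrf1 were at like levels. The lengths used cover all annotated exons of a gene, which may exceed the transcripts present, so levels and shares between genes are approximate. Dnmt1 was at 45.28 ± 0.51 (SD, n = 2) CPM per kb in untreated MelanA and Uhrf1 at 44.51 ± 0.15. Dnmt3a followed at 7.588 ± 0.10 and Dnmt3b at 0.2443 ± 0.054. Dnmt1 held 84.9% to 87.7% of the summed per-length level of Dnmt1, Dnmt3a and Dnmt3b in all 6 groups. The make-up of the TET genes differed between lines instead. Tet3 held 93.6% ± 0.0071 (SD, n = 2) of their summed level in untreated MelanA, 66% ± 1.1 in B16F0 and 74.5% ± 1.1 in B16F10, and Tet2 held 0.0675% ± 0.067, 22.1% ± 0.4 and 18.8% ± 0.54. Their sum was 6.52 ± 0.076 CPM per kb in MelanA, 6.44 ± 0.011 in B16F0 and 7.36 ± 0.018 in B16F10.

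**Figure D2:**
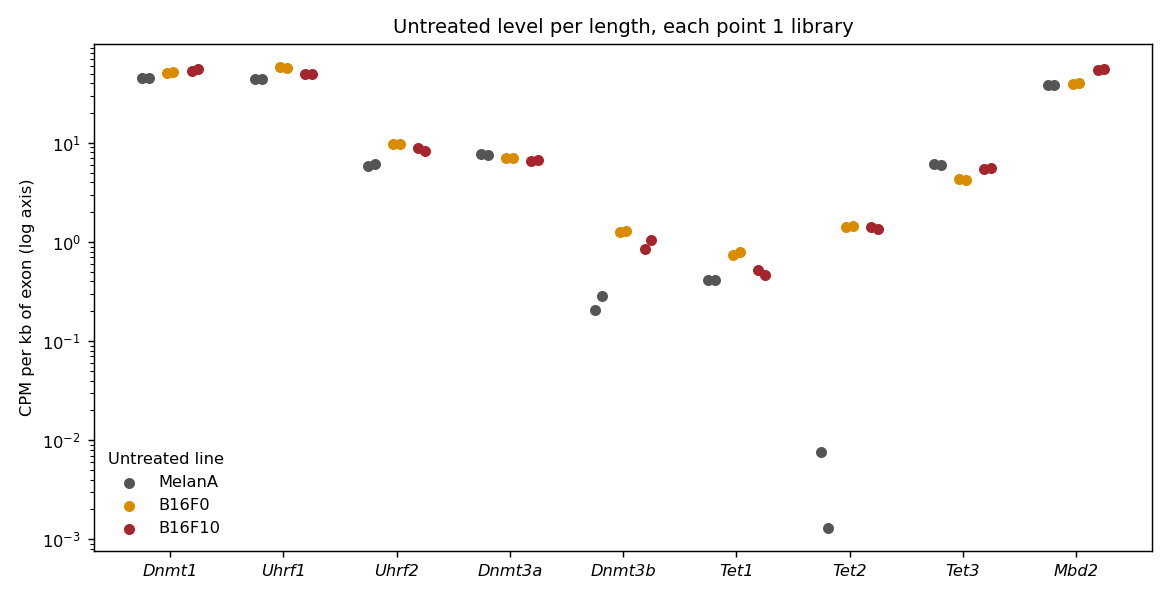
Level per kilobase of exon on a log axis in each untreated library of the 3 lines. Dnmt1, Uhrf1 and Mbd2 lie highest in every line, and the 2 MelanA points of Tet2 fall far below the 4 B16 points.

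The second question was how SX-682 changed these genes within each line. In MelanA 1 of the 9 was higher and 6 were lower at adjusted p under 0.05, where 23.4% of all tested genes were higher and 24.7% lower. In B16F0 2 were higher and 6 lower (25.1% and 25.0% of all genes), and in B16F10 2 were higher and 5 lower (25.5% and 25.3%). The median log2 change of the 9 genes was -0.495, -0.191 and -0.185 in MelanA, B16F0 and B16F10, with a median of 0 over all tested genes in each line. Dnmt1, Uhrf1, Dnmt3a and Tet2 were called lower in all 3 lines, as were 11.7% of all genes, although for Tet2 the MelanA call rests on 11 counts in 1 library. Tet2 did not pass the filter on low counts when only the MelanA libraries were fitted, and 6 of the 9 genes were called in that fit. Uhrf2 was the one gene higher in all 3 lines, as were 11.3% of all genes.

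**Figure D3:**
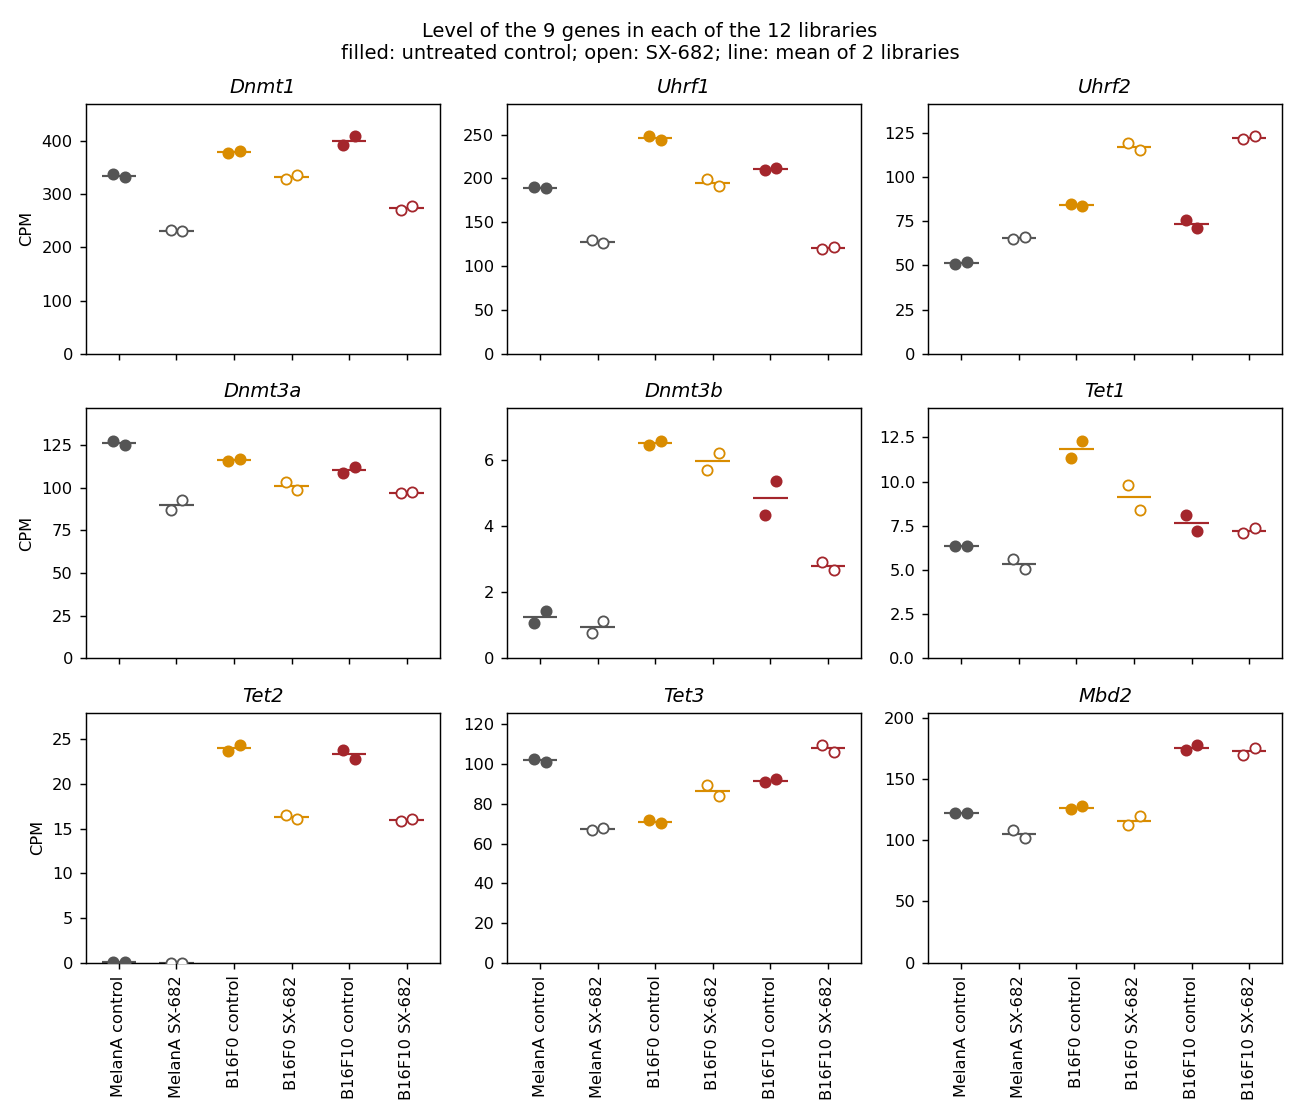
CPM of each gene in all 12 libraries, filled for untreated and open for SX-682, with a line at the mean of the 2 libraries. Open points lie below filled ones in every line for Dnmt1, Uhrf1 and Dnmt3a and above them for Uhrf2, while Tet3 drops from 101.9 to 67.5 CPM in MelanA and rises in both melanoma lines.

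Dnmt1 with SX-682 was at 231.9 and 230.1 CPM in MelanA, 328.3 and 334.9 in B16F0 and 269.2 and 276.8 in B16F10. Every treated library was below both untreated libraries of its line. Dnmt1 fell by 30.8% in MelanA (log2 -0.53 ± 0.025, adjusted p = 5.6e-17), fell by 12.4% in B16F0 (log2 -0.19 ± 0.025, adjusted p = 1.4e-07) and fell by 31.8% in B16F10 (log2 -0.55 ± 0.025, adjusted p = 1.6e-17). The fall in B16F0 was smaller than that in MelanA by 0.34 ± 0.035 (adjusted p = 5.2e-09) and B16F10 differed from B16F0 by -0.36 ± 0.035 (adjusted p = 3.3e-09). MelanA and B16F10 were not separated, with a difference of -0.02 ± 0.035 (adjusted p = 0.76).

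Uhrf1 followed the same course more steeply in B16F10. Its treated libraries were at 129.9 and 125.8 CPM in MelanA, 199.1 and 191 in B16F0 and 119.9 and 121.4 in B16F10, again without overlap. It fell by 32.6% in MelanA, fell by 20.7% in B16F0 and fell by 42.8% in B16F10, with log2 changes of -0.57 ± 0.028, -0.33 ± 0.027 and -0.81 ± 0.028 (adjusted p = 1.1e-16, 1.3e-11 and 2.8e-20). All 3 pairs of lines differed in the size of this fall (adjusted p = 1.4e-05 for B16F0 against MelanA, 1.5e-05 for B16F10 against MelanA and 1.1e-10 for B16F10 against B16F0).

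Uhrf2, at chr19:30030513-30093722 on the plus strand, rose where Uhrf1 fell. With SX-682 it was at 64.75 and 65.76 CPM in MelanA, 119 and 115.3 in B16F0 and 121.4 and 123 in B16F10, above every untreated library of the same line. The rise was 1.27-fold in MelanA (log2 0.34 ± 0.036, adjusted p = 1.8e-09), 1.4-fold in B16F0 (log2 0.48 ± 0.034, adjusted p = 5.9e-13) and 1.67-fold in B16F10 (log2 0.74 ± 0.035, adjusted p = 3.4e-17). B16F10 rose more than MelanA (difference 0.39 ± 0.05, adjusted p = 2.1e-07) and more than B16F0 (0.25 ± 0.049, adjusted p = 0.00014). The difference between B16F0 and MelanA was 0.14 ± 0.049 (adjusted p = 0.03), and it did not pass without any 1 of 8 libraries (both MelanA SX-682, both B16F0 control and both B16F10 SX-682 libraries, MelanA control library 2 and B16F0 SX-682 library 1), with adjusted p between 0.057 and 0.16, nor with no filter on low counts (adjusted p = 0.088). Per kilobase, the share of Uhrf2 in the sum of both UHRF genes was 20.2% ± 0.54 with SX-682 against 11.8% ± 0.26 without it in MelanA (SD, n = 2), 22.9% ± 0.13 against 14.5% ± 0.042 in B16F0, and 33.4% ± 0.0071 against 14.7% ± 0.62 in B16F10. The sum itself was lower with SX-682, at 37.6 against 50.5 CPM per kb in MelanA, 59.4 against 67.5 in B16F0 and 42.6 against 58.1 in B16F10.

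**Figure D4:**
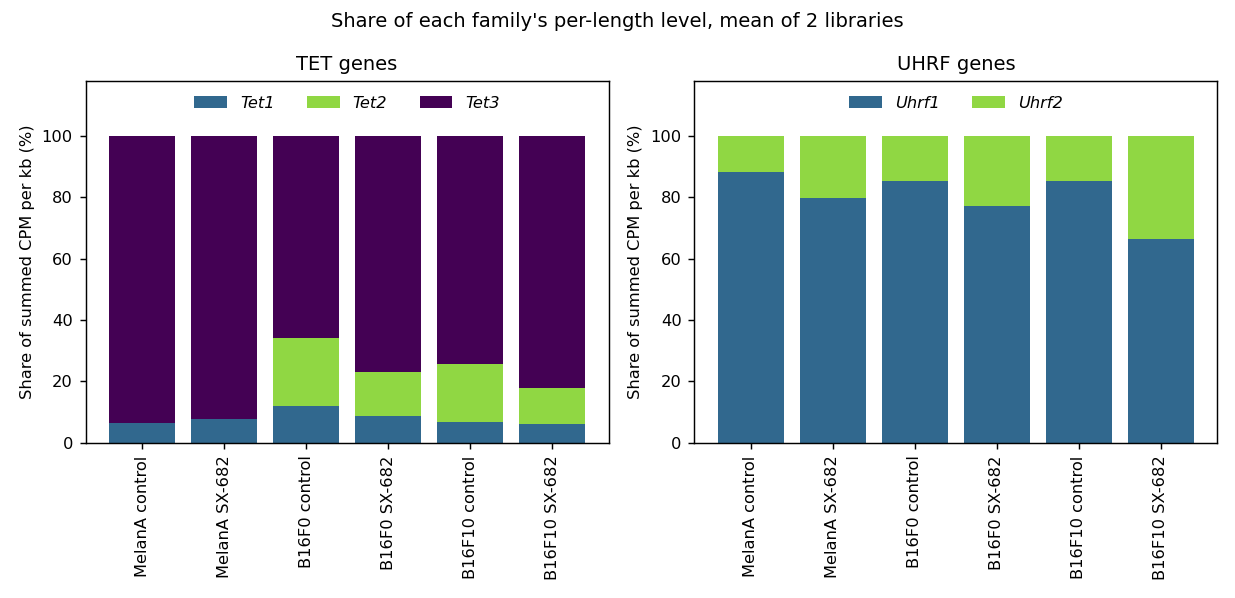
Share of each gene in the summed per-length level of the TET genes (left) and the UHRF genes (right), as the mean of 2 libraries per group. Tet2 is absent from both MelanA bars to the eye and shrinks with SX-682 in B16F0 and B16F10, and Uhrf2 widens with SX-682 in all 3 lines, most in B16F10 at 33.4%.

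Of the de novo enzymes, Dnmt3a was at 86.69 and 92.49 CPM with SX-682 in MelanA, 103.2 and 98.75 in B16F0 and 96.88 and 97.22 in B16F10, below the untreated libraries in each line. It fell by 29% in MelanA (log2 -0.49 ± 0.033, adjusted p = 1.6e-13), fell by 13.1% in B16F0 (adjusted p = 8.1e-06) and fell by 12% in B16F10 (adjusted p = 3e-05). The fall in MelanA was the larger (differences of 0.29 ± 0.047 and 0.31 ± 0.047, adjusted p = 9.8e-06 and 4.3e-06). Dnmt3b with SX-682 was at 0.7571 and 1.119 CPM in MelanA, where it overlapped the untreated libraries, at 5.69 and 6.23 in B16F0 and at 2.918 and 2.667 in B16F10. It passed the test in B16F10 alone, where it fell by 42.5% (log2 -0.80 ± 0.17, adjusted p = 0.00017), with -0.41 ± 0.21 in MelanA (adjusted p = 0.12) and -0.13 ± 0.15 in B16F0 (adjusted p = 0.52). In MelanA, where Dnmt3b had 54 to 131 counts a library, the change passed once MelanA control library 1 (log2 -0.61, adjusted p = 0.036) or MelanA SX-682 library 2 (log2 -0.71, adjusted p = 0.031) was left out. The test of a difference among the 3 lines gave adjusted p = 0.049, which exceeded 0.05 without any 1 of 7 libraries, both B16F0 controls, both B16F0 SX-682, both B16F10 SX-682 and B16F10 control 2 (adjusted p from 0.055 to 0.25), and with no filter on low counts (adjusted p = 0.053). B16F10 differed from B16F0 by -0.67 ± 0.23 (adjusted p = 0.025), a call lost without B16F0 control 1 or 2, B16F0 SX-682 2, B16F10 control 2 or B16F10 SX-682 2 (adjusted p from 0.051 to 0.16).

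Tet3 was the gene of the 9 that moved in opposite directions between MelanA and the melanoma lines. With SX-682 it was at 67.06 and 67.99 CPM in MelanA, below the untreated pair, and at 89.42 and 83.88 in B16F0 and 109.5 and 106.2 in B16F10, above them. Tet3 fell by 33.7% in MelanA (log2 -0.59 ± 0.034, adjusted p = 5.7e-15) and was 1.22-fold higher in B16F0 (log2 0.29 ± 0.035, adjusted p = 3.7e-08) and 1.18-fold higher in B16F10 (log2 0.24 ± 0.034, adjusted p = 7.7e-07). The changes in B16F0 and B16F10 exceeded that in MelanA by 0.88 ± 0.049 and 0.83 ± 0.048 (adjusted p = 8e-15 and 2.5e-14). The melanoma lines were not separated from each other, at -0.05 ± 0.049 (adjusted p = 0.47).

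Tet2 was lower with SX-682 in both melanoma lines. In B16F0 it was at 23.68 and 24.35 CPM untreated and at 16.49 and 16.07 with SX-682, and in B16F10 the values were 23.84 and 22.82 against 15.89 and 16.09. It fell by 32.1% in B16F0 (log2 -0.56 ± 0.081, adjusted p = 9.6e-07) and fell by 31.5% in B16F10 (log2 -0.54 ± 0.081, adjusted p = 1.4e-06). In MelanA the fit gave adjusted p = 0.0029 for a fall, but this rested on the 11 counts of a single control library, and the adjusted p was 0.12 without MelanA control library 1. The other untreated MelanA library, with 2 counts, lay below the floor of 3 counts, so no fold is given. The fitted differences between MelanA and the melanoma lines rest on the same 0 counts, and they did not pass without MelanA control library 1 (adjusted p = 0.22 for each line) or without either MelanA SX-682 library (adjusted p between 0.069 and 0.078). As Tet3 rose and Tet2 fell, the share of Tet2 in the summed per-length level of the TET genes was 14.3% ± 0.41 with SX-682 in B16F0, against 22.1% ± 0.4 without it, and 12% ± 0.29 against 18.8% ± 0.54 in B16F10 (SD, n = 2). The sum was 6.75 ± 0.32 CPM per kb with SX-682 in B16F0 and 7.88 ± 0.12 in B16F10, and in MelanA it went from 6.52 ± 0.076 to 4.39 ± 0.013.

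Tet1 with SX-682 was at 5.636 and 5.06 CPM in MelanA, 9.833 and 8.411 in B16F0 and 7.106 and 7.351 in B16F10, where it overlapped the untreated libraries. It fell by 22.5% in B16F0 (log2 -0.37 ± 0.099, adjusted p = 0.0024), a call lost without B16F0 SX-682 library 2 (log2 -0.27, adjusted p = 0.069). The changes of -0.25 ± 0.11 in MelanA (adjusted p = 0.055) and -0.08 ± 0.11 in B16F10 (adjusted p = 0.57) did not pass. Tet1 was also the one gene for which the test of a difference among the 3 lines did not pass (adjusted p = 0.25). That test passed for 8 of the 9 genes and for 47.4% of all genes, and the Tet2 call in it was lost without MelanA control library 1 (adjusted p = 0.37) or either MelanA SX-682 library (adjusted p = 0.14 and 0.15).

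Mbd2 changed least. With SX-682 it was at 108.5 and 101.8 CPM in MelanA, 112.8 and 119.5 in B16F0 and 170.1 and 175.5 in B16F10. It fell by 14% in MelanA (log2 -0.22 ± 0.033, adjusted p = 1.6e-06) and fell by 8.31% in B16F0 (log2 -0.13 ± 0.033, adjusted p = 0.0023), the latter not without B16F0 SX-682 library 1 (adjusted p = 0.078). In B16F10 treated and untreated libraries overlapped, and the change was -0.02 ± 0.032 (adjusted p = 0.57). The change in B16F10 differed from that in MelanA by 0.19 ± 0.046 (adjusted p = 0.0012). The differences of B16F0 from MelanA (0.09 ± 0.047, adjusted p = 0.13) and of B16F10 from B16F0 (0.10 ± 0.046, adjusted p = 0.11) did not pass, although the first did without B16F0 SX-682 library 1 (adjusted p = 0.041) and the second without B16F0 SX-682 library 2 (adjusted p = 0.024).

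**Figure D5:**
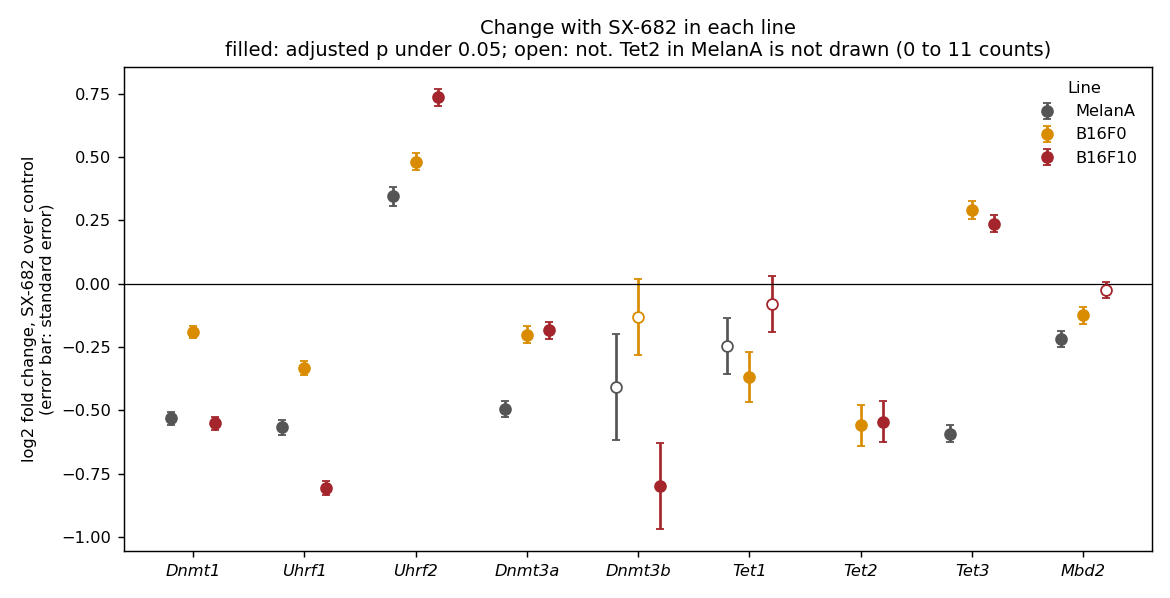
Log2 fold change of each gene with SX-682 in each line, with its standard error, filled where adjusted p was under 0.05. Dnmt1, Uhrf1 and Dnmt3a lie below 0 in every line, Uhrf2 lies above 0 at 0.34, 0.48 and 0.74, and Tet3 lies at -0.59 in MelanA and at 0.29 and 0.24 in B16F0 and B16F10.

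Pairwise tests of the change found 6 of the 9 genes between B16F0 and MelanA, 6 between B16F10 and MelanA and 4 between B16F10 and B16F0, against 34.4%, 33.8% and 30.3% of all genes. The first 2 of these comparisons share the MelanA libraries.

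The other genes of maintenance methylation moved with Dnmt1 and Uhrf1. All 7 listed partners were lower in each of the 3 lines, where 24.7%, 25.0% and 25.3% of all genes were lower per line and 11.7% in all 3, with median log2 changes of -0.482, -0.462 and -0.79. Pclaf, a PCNA-binding factor that helps recruit the maintenance machinery, changed by -1.25, -1.12 and -1.34 on the log2 scale. Hells, the chromatin remodeller needed for methylation of packed DNA, changed by -0.75, -0.52 and -0.79, and Pcna, the replication clamp, by -0.48, -0.51 and -0.90. Genes of S phase and proliferation, a list that also holds Pcna, were lower as well. They were 14 of 15 in each line and 13 of 15 in all 3, beside the same shares of all genes, with medians of -0.52, -0.401 and -0.826. Ccne2 and Ccne1, the E-type cyclins, fell by at least 1.72 and 0.56 on the log2 scale, and Rrm2, a subunit of ribonucleotide reductase, by at least 0.74. The summed level of these 15 genes went from 4520 to between 3040 and 3050 CPM in MelanA, from 4340 to 4350 down to 3450 to 3470 in B16F0, and from 4580 to 4600 down to 3050 to 3090 in B16F10. Their part in the changes of Dnmt1 and Uhrf1 was not tested, and in bulk RNA fewer cells in S phase and less RNA per cell cannot be told apart. The exceptions were Mki67 in the melanoma lines, at 0.00 in each against -0.75 in MelanA, and E2f1 in MelanA, at -0.02, both named after their values were seen.

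Among genes acting after oxidation, 13 were listed for active demethylation and base excision, of which 5 were higher and 3 lower in all 3 lines, against 11.3% and 11.7% of all genes. Gadd45a, Gadd45b and Gadd45g, stress-induced genes that have also been linked to demethylation, had the largest rises of these 5, of 1.21, 1.21 and 1.57 in MelanA, 2.38, 1.49 and 1.84 in B16F0 and 2.84, 2.02 and 2.32 in B16F10 on the log2 scale. Tdg, the glycosylase that removes the oxidised bases made by TET enzymes, went the other way and changed by -0.68, -0.77 and -0.85 on the log2 scale (adjusted p = 2.5e-15, 2.1e-16 and 2.5e-17), and it was named after its values were seen. Of 7 genes listed for TET cofactor supply and partners, 1 was higher in each line, against 23.4%, 25.1% and 25.5% of all genes. In MelanA, B16F0 and B16F10 3, 5 and 4 were lower, against 24.7%, 25.0% and 25.3%. D2hgdh, which encodes an enzyme that oxidises D-2-hydroxyglutarate, an inhibitor of TET enzymes, was higher in all 3 lines. Its log2 changes were 0.37 in MelanA, 0.27 in B16F0 and 0.37 in B16F10. Idh1, which makes 2-oxoglutarate, was lower in all 3 lines and changed by -0.34 in MelanA, -0.70 in B16F0 and -0.66 in B16F10.

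Of 9 listed readers of the mark other than Mbd2, 4 were higher and 1 lower in all 3 lines, against 11.3% and 11.7% of all genes, among them Mbd5 (0.33, 0.47 and 0.48), Mbd6 (0.30, 0.34 and 0.77) and Mbd4, which also encodes a glycosylase (0.42, 0.29 and 0.31). Of 12 subunits of NuRD, the complex that contains MBD2 or MBD3, 1 was higher and 4 lower in all 3 lines, beside the same shares. Mbd3 is in the lists of readers and of NuRD, and Mbd4 in those of readers and of active demethylation. The deacetylase genes Hdac1 and Hdac2 were lower by at least 0.36 and 0.23 on the log2 scale, and Mta1 was higher by 0.27, 0.65 and 0.70.

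Of the 3 other genes of the methyltransferase family, none was called in the same direction in all 3 lines. Dnmt3l, the catalytically inactive partner of the de novo enzymes in germ cells, came closest, with 16 and 26 counts in untreated MelanA and 33 and 24 with SX-682, 4 and 1 against 17 and 17 in B16F0, and 9 and 10 against 41 and 38 in B16F10. The difference passed in B16F0 (adjusted p = 0.00056) and B16F10 (adjusted p = 0.0011) and not in MelanA (adjusted p = 0.24), at 41 counts or fewer per library. Of 14 germline genes whose promoters are methylated in body cells, 5 passed the filter on low counts and none was called in the same direction in all 3 lines. Their summed level was 4.98 to 5.33 CPM in untreated MelanA and 6.01 to 6.13 with SX-682, 1.86 to 2.3 and 2.66 to 2.85 in B16F0, and 1.27 to 1.37 and 1.71 to 1.98 in B16F10. Brdt, a testis bromodomain gene and the one nearest to a call in all lines, had log2 differences of 0.54 in MelanA (adjusted p = 0.029), 0.46 in B16F0 (adjusted p = 0.082) and 0.36 in B16F10 (adjusted p = 0.2). Taf7l, named after its values were seen, was the other germline gene called higher in MelanA. It had 4 and 0 counts untreated and 20 and 28 with SX-682 (adjusted p = 0.0035 in edgeR's test). Taf7l passed the filter on low counts only through those treated MelanA libraries, where it was high, so its p-value is no separate evidence of a rise. No germline gene was called in B16F0 or B16F10.

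Over the 12 libraries, the genes whose log2 CPM most resembled each of the 9 were listed as a description, since the points share libraries and groups. Uhrf1 was most like E2f2 (Pearson r = 0.9925, n = 12), Tia1 (0.9922) and Cdc25a (0.9901), and Dnmt1 was most like Nxt1 (0.9783), Wdr76 (0.9752) and Hdac2 (0.9742). Tet2 was most like Tspan17 (0.9957), Isoc2a (0.9954) and Gjb2 (0.9953), a pattern set largely by the step from MelanA to the melanoma lines. Tet3, with its opposite responses, had the weakest nearest neighbours, Phip (0.9204), Nfia (0.9175) and Rc3h1 (0.9037). Nearest to Uhrf2 were Vdac3 (0.9874), Rpl30 (0.9866) and Supt3 (0.9864), to Dnmt3a Ccnb1 (0.9715), Sf1 (0.9671) and Ncaph (0.9545), and to Dnmt3b Plekhb2 (0.9905), Eif3b (0.9891) and Ide (0.9853). Tet1 was nearest to Gm12346 (0.9823), Cisd3 (0.9743) and Cd2ap (0.9726), and Mbd2 to Ankrd40 (0.9877), Ddias (0.9853) and Ndufa8 (0.9843). Among the 9 genes themselves, the closest pair was Dnmt3b and Tet2 (0.924, n = 12), which were both several-fold lower in MelanA than in the melanoma lines. Dnmt1 and Uhrf1 followed (0.909), while Uhrf1 and Uhrf2 were at -0.183.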

How the data were processed

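RNA from cell cultures was sequenced in 12 libraries. Per the labels, the submitters' processing notes name cutadapt, STAR, DESeq2 and the mm10 build, and the deposited file holds whole-number read counts per gene with gene coordinates and lengths. The versions, the counting program and its strand setting were not given in the sources used here. Without a strand setting, Dnmt3a and Tet2 may share reads with opposite-strand genes over 133 and 43 exonic bases (0.799% and 0.255% of their exons).

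Counts were fitted in edgeR 4.0.16 (R 4.3.3) by the quasi-likelihood test, with all 6 groups in 1 model, TMM scaling and filterByExpr, and p-values were adjusted by Benjamini-Hochberg over 18338 genes. A call is an adjusted p under 0.05. The biological coefficient of variation was 2.78%, with 6 residual degrees of freedom. With 2 libraries against 2, an exact test of a single gene cannot go below a two-sided p of 0.333, so all p-values come from the fit across genes. Differences between replicates exceeded counting noise in every group. Coordinates of the 9 genes equal those of GENCODE M21. The members and lists were chosen with earlier results of these data known. By rule, at most 3 genes per list were named, those called in the same direction in all 3 lines with the largest smallest change, or else the gene with the smallest worst adjusted p, and the 3 genes most like each member by Pearson r of log2 CPM. The alternatives were DESeq2 1.42.0, RLE scaling, other filters on low counts, another prior count, a replicate block, a fit of only the libraries compared and leaving out each library, and the fit was tested on simulated data. A gene of the list for TET cofactor supply and partners is not reported here.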

Additional observations from a re-analysis of the deposited data

Results flagged for a closer look

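The change with SX-682 differed among the 3 lines for 8 of the 9 genes in edgeR's test of the difference itself, as it did for 47.4% of all tested genes. The distance between the lowest and the highest log2 change of the 3 lines was 0.88 for Tet3, which fell in MelanA and rose in both melanoma lines. It was 0.67 for Dnmt3b, 0.47 for Uhrf1, 0.39 for Uhrf2, 0.36 for Dnmt1, 0.31 for Dnmt3a and 0.19 for Mbd2. The Dnmt3b test sat at the threshold. For Tet2 the fitted distance was 4.82, which depends on the 0 counts in MelanA with SX-682 and is no measured fold, and its test did not pass without MelanA control library 1 (adjusted p = 0.37) or either MelanA SX-682 library (0.14 and 0.15).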

How the results depend on the processing

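Of 1663 values of the 9 genes recomputed under the alternatives, 1590 kept their direction and their side of the threshold, 57 no longer passed, 4 newly passed and 12 changed sign. The sign changes were all of values near 0 that passed nowhere. The difference of the SX-682 change between B16F10 and B16F0 was 0 for Dnmt3a and -0.01 for Tet2 under DESeq2, the same under RLE scaling, and 0 for Dnmt3a with at least 10 counts required in every library, a filter under which Tet2 was not tested. Leaving out 1 library at a time gave -0.02 to 0.05 for this difference in Dnmt3a and -0.02 to 0.05 in Tet2, -0.17 to 0.01 for the change of Tet1 in B16F10 and -0.07 to 0 for Tet2 between untreated B16F10 and B16F0. The cause was not tested. No count of called genes moved by over 1.5 times, and the 9 genes gave 6 to 8 calls in MelanA, 7 to 8 in B16F0 and 6 to 7 in B16F10 for SX-682. RLE scaling moved the median of all genes by 0.033 or less. The replicate numbers did not pair the libraries, with correlations of 0.00313, -0.00913 and -0.0127 between same-numbered deviations, and with a replicate block in the fit the calls stood at 7, 8 and 7 for SX-682. The block changed 1 call, Dnmt3a between untreated B16F10 and B16F0 (-0.08, adjusted p = 0.052 in edgeR). Depth limits Tet2 and Cxxc4, at 20 counts or fewer in MelanA, and Dnmt3l.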
